A study of Mus musculus with 6 samples.

Results

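Transcripts of the neurofilament genes and of genes that report axon injury were followed in the cerebellum of mice with STING activated in Purkinje cells. The set was 10 genes chosen by name, all of which were found among the 53746 genes of the deposited count table. They were *Nefl*, *Nefm*, *Nefh*, *Ina* and *Prph*, which encode neuronal intermediate filament proteins, the injury-response genes *Atf3* and *Sprr1a*, the growth-associated genes *Gap43* and *Stmn2*, and *Sarm1*. Whole cerebella of 6 mice, aged 2 months, were sequenced. The 3 controls had the genotype N153S LSL/LSL, and the other 3 animals, the Pcp2-cre mice, were N153S LSL/LSL Pcp2-cre. Both genotypes carried the *Sting1* N153S knockin behind a LoxP-Stop-LoxP cassette on both alleles, and Cre, driven by *Pcp2-cre* in Purkinje cells, was present in the Pcp2-cre mice. Mice with Cre and a normal *Sting1* gene were not analysed here. Mice 1 and 2 of each genotype were male and mouse 3 was female, and animals were perfused with PBS before the tissue was frozen.

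Neurofilaments are the main intermediate filaments of mature axons. The light (*Nefl*), medium (*Nefm*) and heavy (*Nefh*) subunits form the triplet and assemble together with alpha-internexin (*Ina*), while peripherin (*Prph*) is used mainly by peripheral and brainstem neurons. ATF3 is a stress-induced transcription factor that pairs with Jun and is switched on in injured neurons, among other cells, and SPRR1A and GAP43 are proteins of regrowing axons. Stathmin-2 (*Stmn2*) regulates microtubules in growing and regenerating axons, and SARM1 is the NAD-cleaving enzyme that carries out programmed axon degeneration. In the cerebellum the axons of Purkinje cells, of molecular layer interneurons, of the cerebellar nuclei and of incoming climbing and mossy fibers contain neurofilaments. Cell bodies of climbing fibers and of most mossy fibers lie outside the cerebellum, so their transcripts are largely not in this tissue.

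Total counts per mouse ranged from 6733178 to 10178218. A floor of 3 counts, used here as the limit of detection, came to 0.295 to 0.446 CPM and covers counting error only. CPM is a count scaled to library size after TMM normalization. FPKM, deposited separately by the authors, is scaled to library size and gene length. It comes from another quantification and is not these CPM divided by length. Of the 16961 genes kept by edgeR's low-count filter, 7.74% had an adjusted p of at most 0.05, 2.99% higher and 4.75% lower in Pcp2-cre mice. *Sting1*, the engineered gene, had 25.5 ± 2.09 CPM in controls against 38.0 ± 5.55 CPM with Cre (mean ± SD, n = 3 per genotype), a log2 change of 0.57 (SE 0.0969, edgeR adjusted p = 3.59e-04). In public single-cell data the study saw *Sting1* mRNA in microglia alone, with little or none in neurons. It held its staining of STING protein, which was found in Purkinje cells, to be more reliable. With Cre the stained protein rose in Purkinje cells and not in microglia or other neurons, in mice younger than these. Of 10 microglial genes, 8 passed the test as higher with Cre (median log2 change of 1.71 over the 10). Their part in the *Sting1* result was not tested. Control mice 1 and 2 stood apart in their choroid plexus genes, whose summed level over 10 genes was 832 and 1286 CPM. It was 35.5 CPM in control mouse 3 and 26.1 to 92.9 CPM in the Pcp2-cre mice. The part of this tissue in the results was not tested. Values without single mice are given where they differ for the set, *Sting1*, the triplet values and the lists around the axon cytoskeleton and injury. They are not given for lists of cell type markers or for other single genes. Leaving out a single mouse does not remove both control mice 1 and 2.

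Of the 10 genes, 8 passed the filter and 4 of these had an adjusted p of at most 0.05, against 7.74% of all tested genes. *Atf3*, *Nefl* and *Gap43* were higher and *Nefh* was lower in Pcp2-cre cerebella. *Atf3* alone also reached the study's threshold of 0.5 on the log2 scale, which together with the adjusted p was reached by 3.17% of all tested genes, 1.37% in the higher direction. *Nefm*, *Ina*, *Stmn2* and *Sarm1* did not pass the test. The 3 mice of one genotype lay wholly above or below those of the other for 4 of the 8 genes, *Atf3* and *Gap43* upward and *Nefh* and *Sarm1* downward, against 22.2% of all tested genes. *Prph* and *Sprr1a* were at or under the floor in all mice. Over the 8 tested genes the median log2 change was 0.05, against 0.0045 over all tested genes. The count of higher genes fell from 3 to 1 (*Atf3*) in DESeq2, in the 3 limma fits on FPKM and without control mouse 1, control mouse 2, Pcp2-cre mouse 1 or Pcp2-cre mouse 3. It was 4 without control mouse 3 (*Nefm* was added), and *Nefh* was lower without any single mouse. In bulk tissue, fewer cells of a type and less RNA per cell cannot be told apart. In tissue sections the study saw Purkinje cells being lost progressively from 2 months of age, the age sequenced here.

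**Figure D1:**
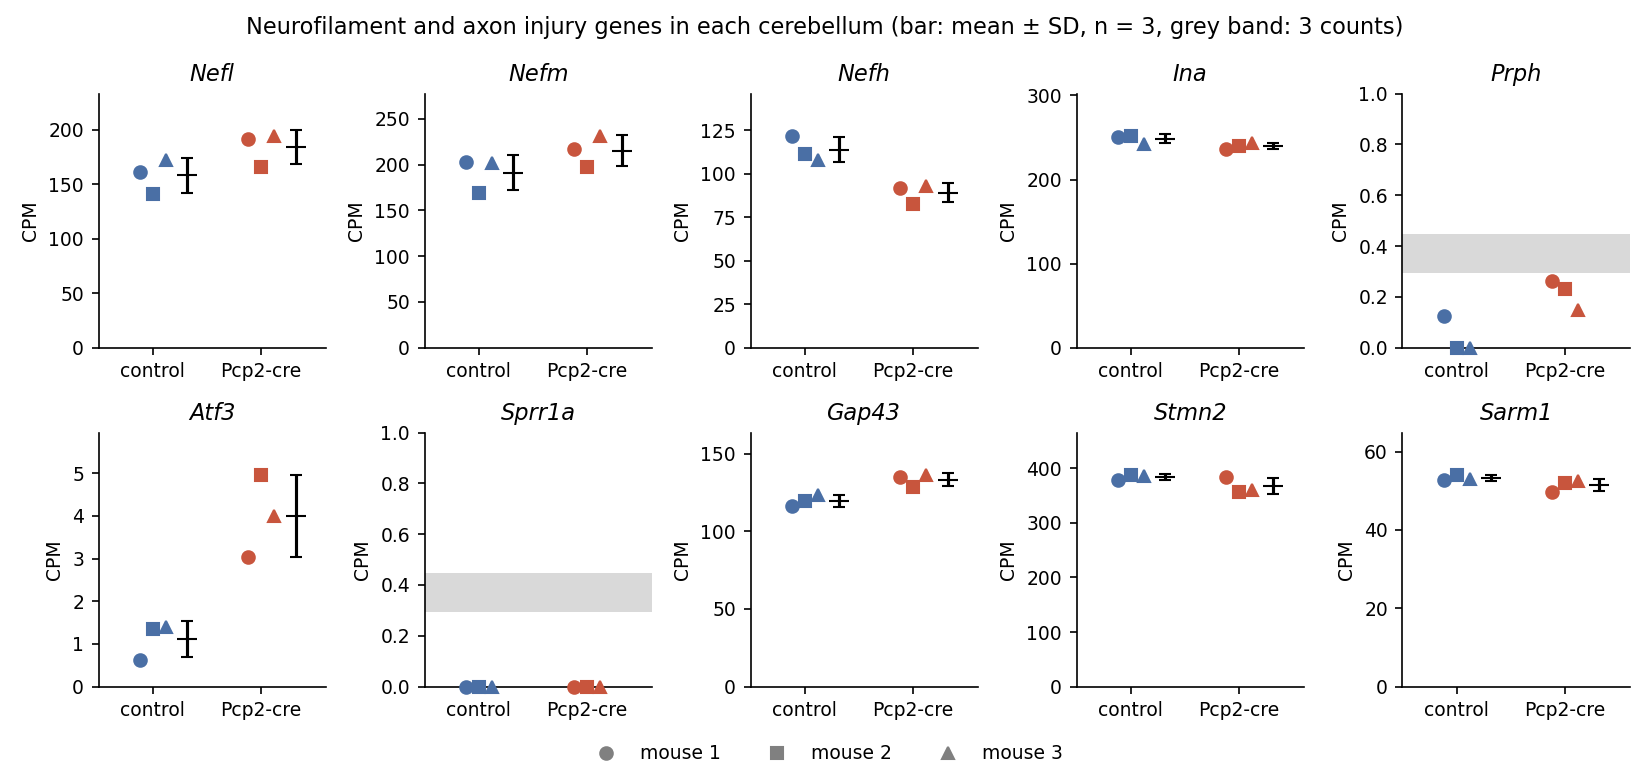
CPM of the 10 genes (vertical axes, starting at 0) in each control (blue) and Pcp2-cre (red) mouse, with the mean and SD of 3 mice as a black bar and, for *Prph* and *Sprr1a*, a grey band at 3 counts in place of the bar. *Atf3* and *Gap43* are higher and *Nefh* is lower in each Pcp2-cre mouse than in every control, while *Nefl* and *Nefm* overlap.

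**Figure D2:**
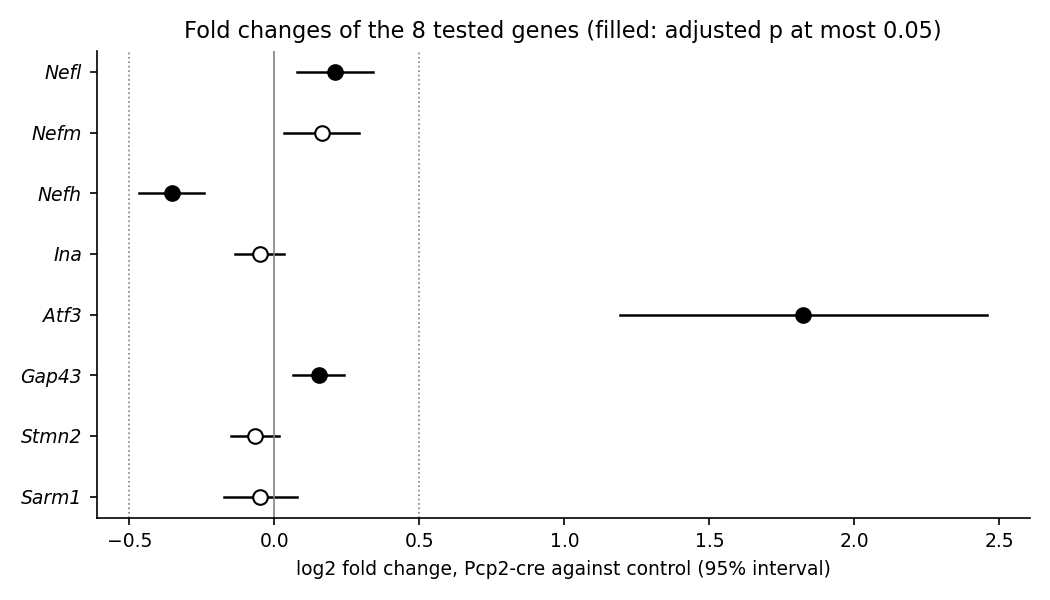
Log2 fold change of the 8 tested genes (horizontal axis) with its 95% interval from edgeR, filled where the adjusted p was at most 0.05, and dotted lines at 0.5 in size. Only the interval of *Atf3*, 1.19 to 2.46, lies beyond the dotted lines.

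*Atf3* (ENSMUSG00000026628) showed the largest change of the set. It maps to the reverse strand of chromosome 1, between bases 190902493 and 190950241 (GRCm39), and no other annotated gene overlaps its exons. It had 5, 9 and 14 counts in controls 1 to 3 (0.624, 1.34 and 1.39 CPM) and 23, 43 and 27 counts in Pcp2-cre mice 1 to 3 (3.03, 4.96 and 3.99 CPM). The lowest Pcp2-cre mouse was above the highest control, as for 10.8% of all tested genes in this direction. The log2 change was 1.82 (SE 0.304, 95% interval 1.19 to 2.46, edgeR adjusted p = 3.07e-04), or 3.54-fold with an interval of 2.28-fold to 5.497-fold. Its level stayed low, at 0.568 ± 0.0807 FPKM in controls against 1.73 ± 0.299 FPKM with Cre (mean ± SD, n = 3 per genotype). The call held in all 15 alternative fits in which *Atf3* could be tested, with an adjusted p of at most 0.0462.

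ATF3 is also made by glia. The summed level of 10 microglial marker genes was 110.3 to 112 CPM in controls against 285 to 313 CPM with Cre, and 8 of the 10 passed the test as higher. *P2ry12* and *Tmem119* did not pass, with log2 changes of 0.28 and 0.06 (edgeR adjusted p of 0.495 and 0.922). Of 8 astrocyte and Bergmann glia genes 5 were higher and 3 lower, with a summed level of 3133 to 3233 CPM in controls against 3317 to 3358 CPM with Cre. The part of these cells in the *Atf3* result was not tested.

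*Sprr1a* (ENSMUSG00000050359), on chromosome 3 from 92390424 to 92393208, had 0 counts in all 6 mice, which allows up to 3 counts or 0.446 CPM in the shallowest library. The deposited FPKM table lists it at 0.139 in Pcp2-cre mouse 1, 0.0838 in Pcp2-cre mouse 3 and 0 in the other mice. Of 10 genes of skin and squamous epithelium, where SPRR proteins are abundant, *Krt10* and *Krt1* were tested and did not pass. *Krt10* had 44 to 79 counts and *Krt1* 5 to 28 counts per mouse, *Lor* had 1 to 10 counts and *Krt14* at most 1. *Krt5*, *Ivl*, *Sprr1b*, *Sprr3*, *Krt13* and *Krt4* had 0 counts in every mouse.

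The promoters of both injury genes are shown because one transcript rose and the other was not detected. RefSeq promoter windows (GRCm38.p6) matched 5 of the 10 genes, *Ina*, *Prph*, *Atf3*, *Sprr1a* and *Sarm1*. The 250 bases before the annotated start are printed 5′ to 3′ on the gene's strand, with capitals at all matches to the core of the cAMP response element (ACGTCA) or to the AP-1 site (TGANTCA), searched on both strands with letters chosen after these windows had been seen. The *Atf3* window is chr1:191183334-191183583 and the *Sprr1a* window chr3:92485882-92486131, both on the reverse strand of that build. The gene coordinates above are on another build, and the starts of these windows were not matched to the ends of those spans.
Atf3: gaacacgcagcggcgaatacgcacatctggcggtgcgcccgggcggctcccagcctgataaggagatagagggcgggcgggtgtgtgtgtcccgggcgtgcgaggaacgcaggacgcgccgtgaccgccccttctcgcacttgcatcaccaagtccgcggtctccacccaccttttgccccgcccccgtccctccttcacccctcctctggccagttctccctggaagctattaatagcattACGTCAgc
Sprr1a: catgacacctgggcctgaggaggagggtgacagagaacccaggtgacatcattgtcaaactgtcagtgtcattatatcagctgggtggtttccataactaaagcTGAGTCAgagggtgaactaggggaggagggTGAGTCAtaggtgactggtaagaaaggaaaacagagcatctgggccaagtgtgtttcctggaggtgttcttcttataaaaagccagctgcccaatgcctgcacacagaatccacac

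The *Atf3* window held 1 match to ACGTCA, which begins 8 bases before the start, and 5 GC boxes (GGGCGG), with a GC content of 65.2%. The *Sprr1a* window held 2 AP-1 matches, beginning 146 and 116 bases before the start, and 1 TATA box (TATAAA), with a GC content of 49.6%. Of all 32851 promoter windows of this length, 6.47% held ACGTCA, 6.75% the AP-1 letters, 12.4% the TATA letters and 32.7% the GC box. These are matches of letters and were not measured as binding.

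*Nefh* (ENSMUSG00000020396), the heavy subunit, was lower in Pcp2-cre cerebella. It maps to the reverse strand of chromosome 11, between bases 4888740 and 4898130 (GRCm39). It had 976, 749 and 1088 counts in controls 1 to 3 and 696, 716 and 628 counts in Pcp2-cre mice 1 to 3. Scaled to library size these were 122, 112 and 108 CPM in control and 91.7, 82.6 and 92.9 CPM in Pcp2-cre mice, without overlap, as for 11.4% of all tested genes in this direction. *Nefh* fell by 0.35 on the log2 scale (SE 0.0540, 95% interval -0.47 to -0.24, edgeR adjusted p = 1.12e-04), a change of -21.8%. Control mouse 3, which lacked the choroid plexus signal of the other controls, was the lowest control at 108 CPM. The part of the choroid plexus in the *Nefh* result was not tested. The call held in 15 of 16 alternative fits and was lost in limma on unfiltered FPKM (adjusted p = 0.129). *Nefh* shares 861 exonic bases with *Ap1b1* on the opposite strand, and whether the counting used strand is not stated. *Ap1b1* had a log2 change of -0.04 (edgeR adjusted p = 0.709).

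*Nefl* (ENSMUSG00000022055), the light subunit, was slightly higher. It lies on chromosome 14 of GRCm39 from 68321268 to 68326544, and its level was 161, 141 and 172 CPM in controls 1 to 3 and 192, 166 and 195 CPM in Pcp2-cre mice 1 to 3. The groups overlapped, because Pcp2-cre mouse 2 lay below control mouse 3. The log2 change was 0.21 (SE 0.0633, 95% interval 0.08 to 0.34, edgeR adjusted p = 0.0463), a rise of 15.6%. This call was lost in 8 of 16 alternative fits, including DESeq2 (adjusted p = 0.0921) and those without control mouse 1 (0.119), control mouse 2 (0.255), Pcp2-cre mouse 1 (0.240) or Pcp2-cre mouse 3 (0.267), and the adjusted p over all 16 ranged from 0.00117 to 0.362.

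*Nefm* (ENSMUSG00000022054), the medium subunit and the neighbour of *Nefl*, is annotated on the opposite strand from 68320039 to 68362305. It had 203, 169 and 202 CPM in controls 1 to 3 and 217, 197 and 232 CPM in Pcp2-cre mice 1 to 3. The groups overlapped, and control mouse 2 was the lowest of all mice in both *Nefl* and *Nefm*. The log2 change of *Nefm* was 0.16 (SE 0.0624, 95% interval 0.03 to 0.29, edgeR adjusted p = 0.141). It passed the test in 3 of 16 alternative fits. *Nefl* and *Nefm* share 1152 exonic bases on opposite strands, so without knowledge of the strand setting some of their reads cannot be told apart.

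*Ina* (ENSMUSG00000034336), on chromosome 19 of GRCm39 from 47003069 to 47013770, had 251, 252 and 242 CPM in control and 236, 239 and 244 CPM in Pcp2-cre mice 1 to 3. Its log2 change was -0.05 with a 95% interval of -0.14 to 0.03 (edgeR adjusted p = 0.587), and the groups overlapped. *Ina* shares 526 exonic bases with *Nt5c2* on the opposite strand. *Prph* (ENSMUSG00000023484), on chromosome 15 from 98952872 to 98956862, had 1, 0 and 0 counts in control and 2, 2 and 1 counts in Pcp2-cre mice, all under the floor of 3 counts, so a difference was not detectable at this depth.

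The proportions of the triplet were also compared within each mouse on the FPKM scale. They restate the fold changes above as composition and are no separate support for them. *Nefh* made up 23.8, 26.2 and 22.6% of the summed FPKM of the triplet in controls 1 to 3 and 18.9, 18.4 and 17.1% in Pcp2-cre mice 1 to 3. The share was 24.2 ± 1.85% in controls against 18.1 ± 0.895% with Cre (mean ± SD, n = 3 per genotype), a difference of -6.11 percentage points without overlap (exact permutation over mice, both tails, p = 0.10, the lowest value available with 3 mice per genotype). *Nefl* took 40.8 ± 1.55% in controls against 44.9 ± 0.455% with Cre, and *Nefm* 35.0 ± 0.924% and 37.0 ± 0.908% (mean ± SD, n = 3 per genotype). The sum of the triplet itself was 97.9 ± 4.46 FPKM in controls against 103.8 ± 6.16 FPKM with Cre (mean ± SD, n = 3 per genotype), and the groups overlapped (two-sided exact permutation test, p = 0.30).

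**Figure D3:**
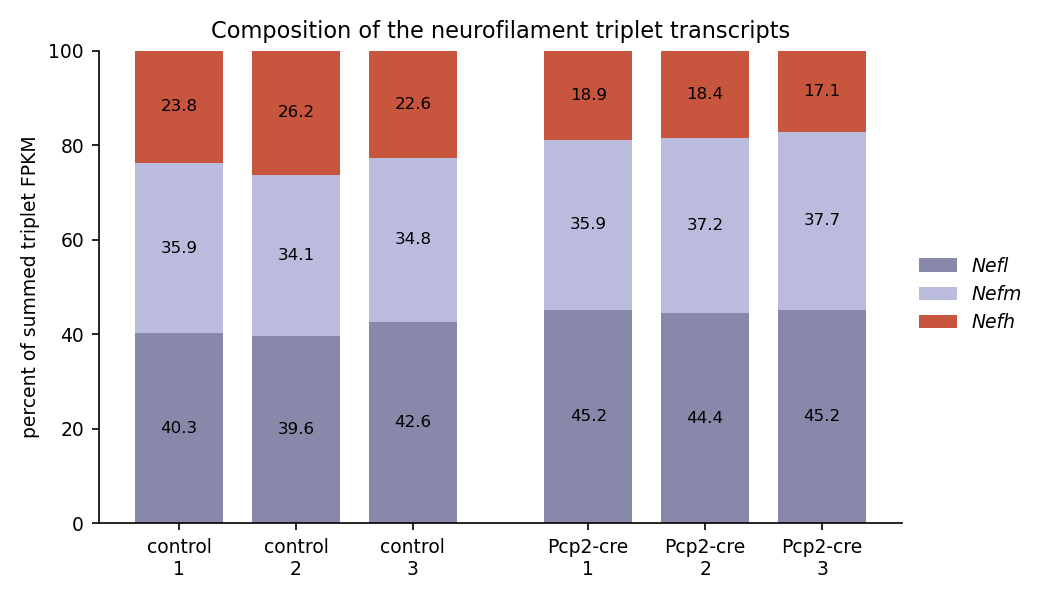
Percent of the summed FPKM of *Nefl*, *Nefm* and *Nefh* (vertical axis, 0 to 100) taken by each subunit in each mouse. *Nefh* takes 22.6 to 26.2% in the 3 controls and 17.1 to 18.9% in the 3 Pcp2-cre mice.

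Purkinje cells express all 3 subunits, and their marker genes were lower in the same libraries. All 10 Purkinje cell genes of the list passed the test as lower, with a median log2 change of -0.77 and a summed level of 7763 to 8497 CPM in controls against 4375 to 4866 CPM with Cre. Their average log2 CPM, set against that of the controls, was -0.59, -0.78 and -0.71 in Pcp2-cre mice 1 to 3. For *Nefh* the same quantity was -0.31, -0.46 and -0.29. Among the Pcp2-cre mice, mouse 2 was lowest in the Purkinje cell genes and in each triplet subunit, while mouse 3 was below mouse 1 in the Purkinje cell genes but not in *Nefh*. For *Nefl* it was 0.28, 0.07 and 0.30. The triplet mean minus the Purkinje cell mean was -1.46 ± 0.137 in control and -0.76 ± 0.0894 in Pcp2-cre mice on the log2 CPM scale (mean ± SD, n = 3 per genotype), a difference of 0.71. Nearly all of it was the fall of the Purkinje cell genes, since the triplet mean itself moved by 0.01 and the Purkinje cell mean by -0.69. The part of the Purkinje cell change in the *Nefh* result was not tested.

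**Figure D4:**
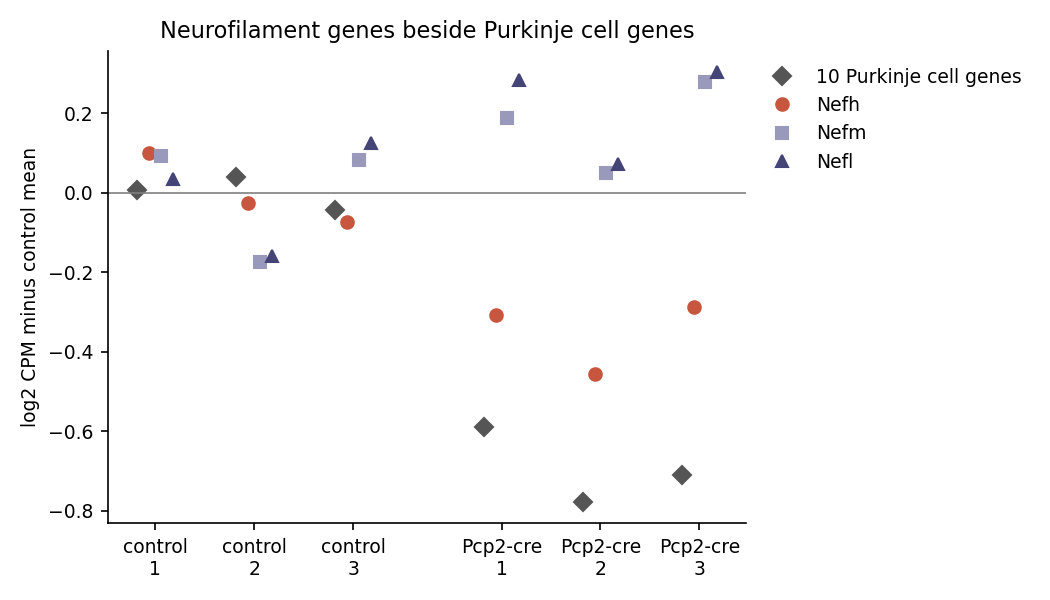
Log2 CPM minus the control mean (vertical axis) in each mouse for *Nefl*, *Nefm*, *Nefh* and the mean of 10 Purkinje cell genes. In Pcp2-cre mice the Purkinje cell genes sit between -0.78 and -0.59, *Nefh* between -0.46 and -0.29, and *Nefl* between 0.07 and 0.30.

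Other neurons that carry neurofilaments were checked by their markers. Of 6 genes of cerebellar nuclei neurons 4 were tested and 0 passed in edgeR or DESeq2 (2 were higher at an unadjusted p under 0.05), and the list's summed level was 363 to 429.6 CPM in controls against 394 to 415 CPM with Cre, which overlap. Most of that sum was *Calb2*, which granule cells also express. *Slc17a6*, the vesicular glutamate transporter of these nuclei, had a log2 change of 0.59 (edgeR adjusted p = 0.0516). That of *Meis2* was 0.78 (edgeR adjusted p = 0.0984). Both were higher without overlap between genotypes, as for 10.8% of all tested genes in this direction. *Slc17a6* had 80, 37 and 134 counts in controls 1 to 3 and 112, 126 and 107 in Pcp2-cre mice 1 to 3. *Meis2* had 18, 7 and 28 counts in controls and 31, 28 and 25 in Pcp2-cre mice. Scaled to library size, control mouse 2 was the lowest mouse in both genes, as in *Nefl* and *Nefm*. *Slc6a5* and *Calb2* overlapped, with log2 changes of 0.12 and -0.01. The part of these neurons in the *Nefl* and *Nefm* results was not tested. Of 8 genes of molecular layer interneurons, *Gad1* passed as lower and 7 did not pass. Of 16 brainstem and motor neuron genes 1 was tested, *Th*, the tyrosine hydroxylase gene, which some Purkinje cells also express. *Th* had 9.27 ± 2.42 CPM in controls against 22.4 ± 4.63 CPM with Cre (mean ± SD, n = 3 per genotype), without overlap, and rose by 1.27 on the log2 scale (edgeR adjusted p = 1.16e-05), opposite in direction to the Purkinje cell list. The other 15 genes had at most 5 counts in any mouse. They summed to 0.991 to 1.34 CPM in controls against 1.04 to 1.18 CPM with Cre, and *Chat*, *Slc18a3*, *Isl1*, *Hoxa3*, *Hoxd3* and *Hoxc4* had 0 counts in every mouse.

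*Gap43* (ENSMUSG00000047261), which encodes a membrane protein of growth cones and presynaptic endings, was slightly higher. It lies on chromosome 16 of GRCm39 from 42068805 to 42161086. Its level was 116, 119 and 123 CPM in controls 1 to 3 and 135, 128 and 136 CPM in Pcp2-cre mice 1 to 3, without overlap. The log2 change was 0.15 (SE 0.0419, 95% interval 0.07 to 0.24, edgeR adjusted p = 0.0255), a rise of 11.2%. The call was lost in 9 of 16 alternative fits, including DESeq2 (adjusted p = 0.264) and those without control mouse 1 (0.130), control mouse 2 (0.0788), Pcp2-cre mouse 1 (0.103) or Pcp2-cre mouse 3 (0.132), and the adjusted p over all 16 ranged from 0.0202 to 0.264. The direction was the same in each.

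*Stmn2* (ENSMUSG00000027500), on chromosome 3 from 8574151 to 8626667, had 379, 388 and 386 CPM in control and 384, 356 and 361 CPM in Pcp2-cre mice 1 to 3. Pcp2-cre mouse 1 lay among the controls. The log2 change was -0.07 with a 95% interval of -0.15 to 0.02 (edgeR adjusted p = 0.424). *Sarm1* (ENSMUSG00000050132), on chromosome 11 from 78361100 to 78388641, had 52.6, 54.1 and 53.0 CPM in control and 49.8, 52.1 and 52.5 CPM in Pcp2-cre mice. All 3 Pcp2-cre mice lay just below the controls, but the gene did not pass the test. Its log2 change was -0.05 with a 95% interval of -0.17 to 0.08 (edgeR adjusted p = 0.757). *Sarm1* shares 1786 exonic bases with *Slc46a1* on the opposite strand.

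Per length, the order of the set was the same in both genotypes. *Stmn2* was highest, at 180.5 ± 1.74 FPKM in controls against 171 ± 9.41 FPKM with Cre (mean ± SD, n = 3 per genotype). *Gap43* followed at 74.4 ± 1.79 and 83.6 ± 2.48 FPKM, and *Ina* at 67.2 ± 2.39 and 64.2 ± 2.95 FPKM. *Nefl* had 39.99 ± 2.77 and 46.7 ± 3.22 FPKM, *Nefm* 34.3 ± 2.42 and 38.4 ± 2.05 FPKM, and *Nefh* 23.7 ± 1.10 and 18.8 ± 1.45 FPKM. In control mice the lowest *Nefl* value, 36.9 FPKM, lay just above the highest *Nefm* value, 36.6 FPKM. *Sarm1* (9.92 ± 0.658 and 9.70 ± 0.921 FPKM) and *Atf3* were lower, and *Prph* and *Sprr1a* had at most 0.163 and 0.139 FPKM and overlapped. Among 11375 other genes with a mean of at least 10 CPM, the profile over the 6 mice closest to the mean of the triplet belonged to *Mrps31*, *AW554918* and *Fitm2*, with root mean square differences of 0.0154, 0.0189 and 0.0255 on the log2 scale. None of these 3 passed the test (adjusted p of 0.951 or more from edgeR). The triplet mean averages *Nefh* with subunits that had positive fold changes.

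Genes around the axon cytoskeleton and the injury response were examined as 5 lists. Of 40 regeneration-associated genes, 31 were tested, 5 passed as higher and 1 as lower (2.99% and 4.75% of all tested genes did), with a median log2 change of 0.12 against 0.0045 over all tested genes. The AP-1 genes *Fos* and *Jun*, whose proteins can pair with ATF3, rose by 0.51 (edgeR adjusted p = 2.22e-04) and 0.43 on the log2 scale (edgeR adjusted p = 2.16e-05). *Fos* had 31.4 ± 3.41 CPM in controls against 44.1 ± 2.68 CPM with Cre, and *Jun* 61.3 ± 5.29 and 83.5 ± 1.04 CPM (mean ± SD, n = 3 per genotype). *Cd24a*, a surface sialoglycoprotein gene, went from 4.32 ± 1.09 to 9.85 ± 0.655 CPM (log2 change 1.15). *Gfra1*, the GDNF co-receptor gene, rose by 0.62, *Nrn1*, which encodes neuritin, rose by 0.17, and *Sez6l* fell by 0.19.

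The other 25 tested regeneration genes did not pass. *Ecel1*, an injury-induced endopeptidase gene named here after its values were seen, was under the filter with 1, 2 and 5 counts in control and 13, 17 and 8 counts in Pcp2-cre mice. *Gal*, the galanin gene, also under the filter and named after its values were seen, had 2, 3 and 3 counts in control and 0 in each Pcp2-cre mouse, all at or under the floor. Without Pcp2-cre mouse 1, 3 genes of the list passed as higher, and DESeq2 also called 3. Without control mouse 3, 2 passed as lower.

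Of 17 stathmin and growth-cone membrane genes, all tested, 5 passed as higher and 2 as lower (2.99% and 4.75% over all tested genes), with a median log2 change of 0.06. *Basp1*, whose product resembles GAP43 and MARCKS in function, went from 8.71 ± 1.27 to 14.5 ± 1.78 CPM (mean ± SD, n = 3 per genotype), a log2 change of 0.74 (edgeR adjusted p = 9.10e-04). *Stmn1*, *Stmn4*, *Marcks* and *Dpysl3* rose by 0.17, 0.28, 0.22 and 0.38. The adhesion gene *Nrcam* and the microtubule-binding kinase gene *Dclk1* fell by 0.18 and 0.13. Without control mouse 1, Pcp2-cre mouse 2 or Pcp2-cre mouse 3, 0 genes passed as lower in edgeR, against 3 at an unadjusted p under 0.05 with all mice and 2 in DESeq2. DESeq2 called 3 as higher. Most of the microglial genes described above were higher in the same mice, and their part in this list and in the regeneration list was not tested.

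Of 24 genes of axonal microtubules, spectrins and the initial segment, 6 passed as lower and 0 as higher (edgeR, adjusted p of at most 0.05, against 4.75% and 2.99% of all tested genes), with a median log2 change of -0.07. DESeq2 also called 6 lower and 0 higher, and at an unadjusted p under 0.05 edgeR gave 9 lower and 0 higher. Leaving out single mice gave 4 to 8 lower. The kinesin gene *Kif5a*, whose motor carries neurofilaments, fell by 0.18 on the log2 scale, *Sptan1* and *Ank2* by 0.17 each, and *Scn8a* and *Map1a* by 0.14 each. None of the 6 reached 0.5 on the log2 scale. The Purkinje cell genes described above fell in the same mice, and their part in this list was not tested.

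Of 23 genes around SARM1 and NAD, 21 were tested. The death receptor gene *Tnfrsf21* passed as lower (log2 change -0.26, edgeR adjusted p = 0.0443), and 20 did not pass. A count of 1 in 21 is near the 4.75% of all tested genes that were lower. That call was lost in DESeq2 and without any one mouse other than control mouse 3, whose omission gave 2 lower genes. At an unadjusted p under 0.05, 2 genes were higher and 3 lower. *Nmnat2*, the axonal NAD-synthesizing enzyme that holds SARM1 in check, had 271 ± 13.1 CPM in controls against 259 ± 10.6 CPM with Cre (mean ± SD, n = 3 per genotype), a log2 change of -0.07 (edgeR adjusted p = 0.504). It is named for its role. *Tnfrsf1a*, *Mapk10* and *Nampt* had log2 changes of 0.49, -0.12 and 0.15 and did not pass.

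Of 8 other intermediate filament and linker genes, *Gfap* and *Vim*, the filaments of astrocytes, were higher and 6 did not pass. *Gfap* rose by 1.94 and *Vim* by 0.41 on the log2 scale. *Nes* and *Synm* had log2 changes of 0.17 and -0.09 and did not pass. *Jun*, *Nrn1*, *Cd24a*, *Stmn1*, *Dclk1*, *Kif5a*, *Ank2*, *Map1a* and *Vim*, among others of the 5 lists, share exonic bases with a gene on the opposite strand.

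**Figure D5:**
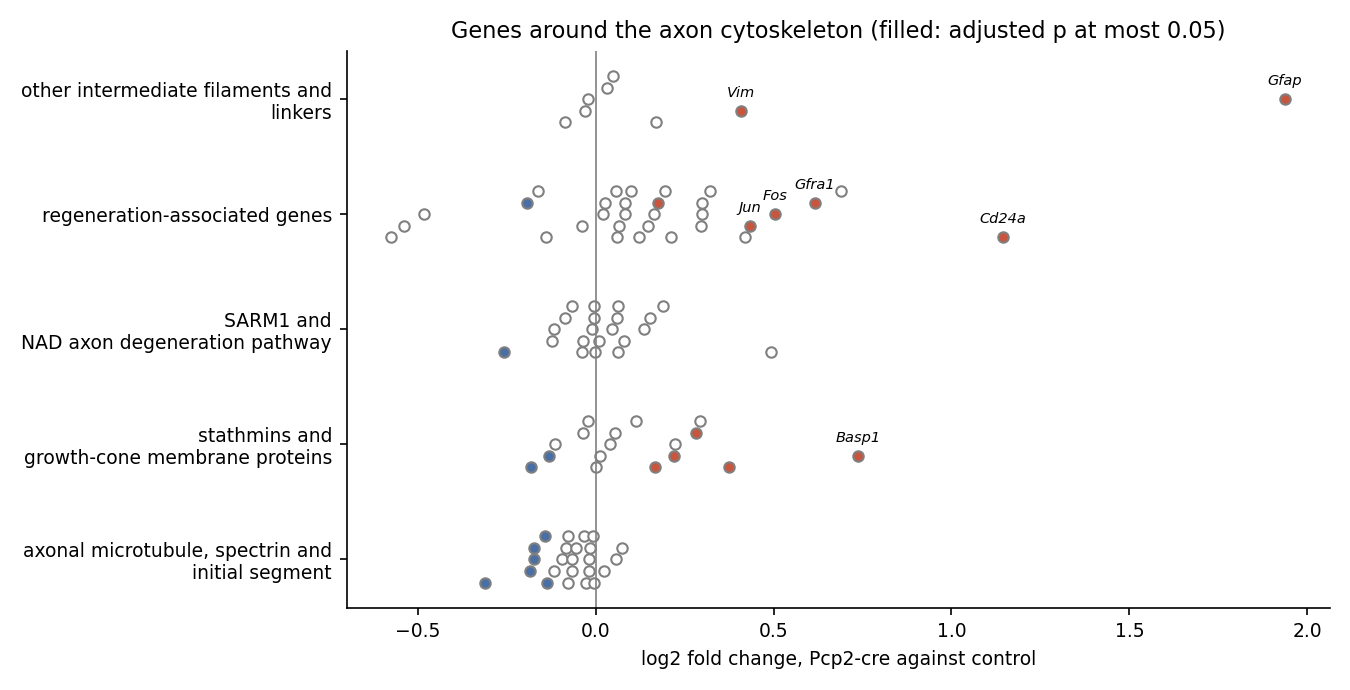
Log2 fold change (horizontal axis) of each tested gene in 5 lists (rows, with points spread vertically for display), filled where edgeR's adjusted p was at most 0.05 (red higher, blue lower). The passing genes of the regeneration and growth-cone lists lie mostly to the right, and the 6 of the axonal microtubule and spectrin list all lie to the left.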

How the data were processed

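Whole cerebella of 3 control and 3 Pcp2-cre mice were profiled by poly(A) RNA-seq. The authors aligned reads to GRCm39 with STAR, and deposited raw gene counts (featureCounts) and FPKM values (StringTie) on Gencode annotation. Program versions, the Gencode release and the strand and multi-mapping settings are not given in the sources used here. Per the labels, tools also include edgeR and DESeq. Total counts were 6733178 to 10178218, which sets the floor of 3 counts given with the results.

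Counts were filtered (filterByExpr), TMM-scaled and tested with edgeR 4.0.16 (glmQLFit and glmQLFTest, R 4.3.3), with Benjamini-Hochberg adjustment over 16961 genes. Genes with an adjusted p of at most 0.05 passed. Intervals are 95%. Single values were compared by two-sided exact permutation over mice. DESeq2 1.42.0, limma 3.58.1 on log2(FPKM + 1) and log2(FPKM + 0.1), other filters and scaling, sex, and omission of each mouse were alternatives, and omission of each mouse for the lists was added after seeing the data. The edgeR and DESeq2 fits were tested on simulated counts and limma on simulated levels. The planted changes were larger than those of *Nefl*, *Nefh* and *Gap43*, so sensitivity to changes of that size was not tested. The labels name mice as separate animals. Coordinates and exons are from Gencode M39, which held 16874 of the 16961 tested genes.

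The 10 genes and all lists were chosen with earlier results of these data known. Named genes were the 10, *Sting1*, called genes of each list (or the 4 of smallest p), genes that a result turned on, and the 3 nearest profiles. One result is not reported here.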

Additional observations from a re-analysis of the deposited data

How the results depend on the processing

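With 3 mice a group, small changes depend on single libraries. The number of the 10 genes that passed as higher, 3, was 1 (*Atf3*) in DESeq2 and in each of the 3 limma fits on FPKM, and 1 to 4 when a mouse was left out. It was 1 without control mouse 1, control mouse 2, Pcp2-cre mouse 1 or Pcp2-cre mouse 3. The number that passed as lower, 1 (*Nefh*), was 0 in limma on log2(FPKM + 1) without a filter, and 1 without any mouse. *Sting1* had log2 fold changes of 0.46, 0.49 and 0.46 on log2(FPKM + 1), log2(FPKM + 0.1) and log2(FPKM + 1) without a filter, with adjusted p of 0.226, 0.233 and 0.544 from limma. In DESeq2, 3 regeneration genes and 3 growth-cone genes were higher and 0 genes around SARM1 were lower. Leaving out a mouse gave 3 to 5 higher and 1 to 2 lower regeneration genes, and 0 to 2 lower genes around SARM1. It gave 0 to 2 lower growth-cone genes and 4 to 8 lower axonal microtubule and spectrin genes. The cause was not tested. No direction of the 8 tested genes reversed. *Atf3* could not be tested under the filter of 10 counts per mouse. Over all genes 1312 passed, against 780 in DESeq2, 649, 633 and 336 in the limma fits and 852 without Pcp2-cre mouse 2. With the fold threshold these were 537 against 353, 396 and 221 in limma (367 in DESeq2). Same-numbered mice correlated at 0.0408, 0.0565 and 0.166 in their deviations, so the numbers were not taken to pair them. Control mouse 1 correlated best with Pcp2-cre mouse 2 (0.0730), while control mice 2 and 3 correlated best with their same-numbered mice. Mouse 3 was the female of each genotype. With the replicate block 4 of the genes were higher (*Nefm*, adjusted p = 0.0169 from edgeR, was added), 1 was lower and 1334 genes passed.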

Other observations

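Oligodendrocyte genes were also higher. Of 8 genes, 5 passed the test as higher in edgeR (3 in DESeq2), and their summed level was 3570 to 3789 CPM in control and 4185 to 4395 CPM in Pcp2-cre mice, without overlap. Of 9 granule cell genes, *Neurod1* passed as higher and 8 did not pass. Sensory ganglion genes, whose neurons make much peripherin, summed to 5.11 to 6.94 CPM in control and 5.19 to 6.66 CPM in Pcp2-cre mice, and *Scn10a* had 0 counts in every mouse.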
